A study of Mus musculus with 18 samples.

Results

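The regions described here are 6486 bins of 10 kb in which the H3K36me2 signal of mouse embryonic stem cells made up a larger part of its library after inhibition of EZH2. They were taken from 246266 autosomal bins, each made of 10 non-overlapping windows of 1 kb. In every library the mean signal of a bin was divided by the mean over all windows of the 19 autosomes, and the quotient is called the relative level below, so that 1 is the genome average. A bin was kept when its mean relative H3K36me2 level after DMSO was 0.2 or more, when the log2 ratio of the inhibitor mean to the DMSO mean was 0.8 or more, and when each inhibitor library exceeded each DMSO library. The bins were thus chosen by the H3K36me2 values after DMSO and after the inhibitor, which are given as a description without a test. In all, 201904 bins met the DMSO minimum, and 3.21% of these met the whole rule, which is 2.63% of all autosomal bins.

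The cells were E14, an established mouse embryonic stem cell line, kept in 2i/LIF medium with inhibitors of GSK3 and MEK and supplied with arginine and lysine of differing isotope mass. DMSO cells received the solvent for 7 days, and EZH2i cells received EPZ-6438 at 10 µM for 7 days. The 2 H3K36me2 and 2 H3K27me3 libraries of each of these arms carried Drosophila S2 chromatin at 0.05% of the total as a spike-in. Untreated cells gave the other 10 libraries, which had no spike-in, 2 each for H3K27me1, H3K27me2, H3K27me3, H3K36me2 and H3K36me3. Whether replicates were separate cultures is not given in the sources used here, so p-values measure only the spread between these libraries, which may be technical in part.

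PRC2, through its enzyme EZH2, adds methyl groups to lysine 27 of histone H3. The trimethylated form, H3K27me3, marks silenced genes. H3K36me2 is placed mainly by the NSD enzymes over broad stretches of active and intergenic chromatin, and H3K36me3 is placed by SETD2 along transcribed gene bodies. Methylation of lysine 36 is known to hinder PRC2 on the same histone tail.

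Few gaining bins held a promoter start. The start of a protein-coding gene lay in 92 bins (1.42%), against 2.77% of the other bins of low H3K36me2 (a DMSO level from 0.2 to under 0.4 without the gain) and 6.63% of all autosomal bins. The start of an lncRNA gene lay in 130 bins (2.00%), against 1.31% and 3.85%. RefSeq promoter windows were matched to bins by their transcription start, and the 250 bases upstream of the start were examined. Gaining bins held the starts of 98 promoters of 96 protein-coding genes. These had a median of 2 CG dinucleotides in the 250 bases and a median GC content of 42.2%, against 10 and 56.0% over 20085 protein-coding promoters on the autosomes. CG was found at least 10 times in 4 of the 98 (4.08%), in 51.3% of all and in 14.8% of the 977 promoters in the other bins of low H3K36me2, whose median was 1. The 137 lncRNA promoters in gaining bins also had a median of 2, and none held 10, against 8.90% in the other bins of low H3K36me2 and 15.3% of all lncRNA promoters. The count was made for CG, which reads the same on both strands. Of the 20 genes with the most gaining bins, which are described further on, 16 had a promoter in the RefSeq table and 5 had one in a gaining bin. One promoter of each of these 5 is printed to show how far they differ in CG content: Lsamp had 3, Robo2 had 4, Celf2 had 5, Nrxn3 had 12 and Ctnna2 had 30. The printed promoters of Lsamp, Robo2 and Nrxn3 lie well inside the gene body. Other promoters of these genes, outside gaining bins, had 12 in Lsamp, 14 and 8 in Robo2, 7, 43 and 5 in Celf2 and 2 and 5 in Nrxn3. The sequences run 5′ to 3′ up to the base before the start, in GRCm38.p6 coordinates, with each CG in capitals.
Lsamp, chr16:41532576-41532825, plus strand: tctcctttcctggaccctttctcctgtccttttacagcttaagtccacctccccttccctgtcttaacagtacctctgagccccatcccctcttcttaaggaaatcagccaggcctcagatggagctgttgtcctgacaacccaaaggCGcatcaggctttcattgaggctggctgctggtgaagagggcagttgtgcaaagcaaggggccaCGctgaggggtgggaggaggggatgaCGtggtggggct
Robo2, chr16:75092771-75093020, minus strand: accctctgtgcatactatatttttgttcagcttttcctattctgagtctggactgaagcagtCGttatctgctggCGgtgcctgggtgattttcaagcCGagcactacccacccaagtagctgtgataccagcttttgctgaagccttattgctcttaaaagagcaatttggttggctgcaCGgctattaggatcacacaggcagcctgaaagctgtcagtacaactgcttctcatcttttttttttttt
Celf2, chr2:7396001-7396250, minus strand: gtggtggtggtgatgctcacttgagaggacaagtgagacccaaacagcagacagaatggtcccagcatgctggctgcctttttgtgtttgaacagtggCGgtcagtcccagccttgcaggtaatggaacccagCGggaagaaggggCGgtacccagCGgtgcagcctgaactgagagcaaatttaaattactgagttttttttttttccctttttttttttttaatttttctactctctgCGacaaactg
Nrxn3, chr12:89812233-89812482, plus strand: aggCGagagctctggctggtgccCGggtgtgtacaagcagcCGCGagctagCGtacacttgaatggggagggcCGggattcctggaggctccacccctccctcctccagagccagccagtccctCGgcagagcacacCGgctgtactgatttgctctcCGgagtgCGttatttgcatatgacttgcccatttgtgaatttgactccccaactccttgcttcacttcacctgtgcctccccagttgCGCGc
Ctnna2, chr6:77979668-77979917, minus strand: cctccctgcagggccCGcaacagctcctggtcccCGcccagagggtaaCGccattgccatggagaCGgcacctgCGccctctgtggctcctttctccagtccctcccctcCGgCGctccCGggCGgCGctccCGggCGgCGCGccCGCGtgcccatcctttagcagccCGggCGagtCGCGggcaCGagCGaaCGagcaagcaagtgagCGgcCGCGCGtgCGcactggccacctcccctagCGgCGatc

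The bins around these promoters differed in untreated H3K27me3. The bin of the printed Lsamp promoter had untreated H3K27me3 of 2.65 and 2.76. Its H3K36me2 was 0.380 and 0.451 after DMSO against 0.709 and 0.974 after the inhibitor. The bin of the CG-rich Ctnna2 promoter had untreated H3K27me3 of 1.76 and 2.36, and H3K36me2 of 0.282 and 0.223 against 0.462 and 0.494. The bin of the printed Nrxn3 promoter stood at 2.22 and 2.92 in H3K27me3, that of Robo2 at 1.26 and 1.54, and that of Celf2 at 1.055 and 1.08. In both replicates all 5 lay above the mean of the gaining bins, which was 0.739 and 0.940. The other 29 promoters of the 16 genes lay outside gaining bins, and their bins spanned a wider range. In replicate 1 their untreated H3K27me3 ran from 0.453 in a Robo2 bin below the DMSO minimum to 5.50 in the Adgrl3 bin. The H3K36me2 log2 changes of these bins were 0.49 and 0.25.

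Summed reads over windows ranged from 22941642 to 67470474 in the untreated libraries and from 50553198 to 111781713 in the quantitative H3K36me2 libraries. They were 21579313 and 27916744 for H3K27me3 after DMSO, but 992564 and 1779587 after the inhibitor. As a check of the cell type, untreated H3K36me3 over the bodies of 10 pluripotency genes was at least 2.57 times the autosomal mean in both replicates. Pou5f1 stood at 6.82 and 7.43 times the mean. Over 15 genes of other lineages it ranged from 0.199 for Alb, a liver gene, to 3.41 for Eomes, a mesendoderm gene.

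Before inhibition the gaining bins were poor in H3K36 methylation and held intermediate H3K27me3. In untreated cells the relative level of H3K36me3 over the bins was 0.184 and 0.153 (0.168 ± 0.0218, mean ± SD, n = 2), and that of H3K36me2 was 0.208 and 0.296 (0.252 ± 0.0626). H3K27me1 stood at 0.679 and 0.774, and H3K27me2 at 0.652 and 0.752. By means over the bins H3K27me3 was the mark nearest to the genome average, at 0.739 and 0.940 (0.839 ± 0.143). Its median over the bins was lower than this mean, at 0.639 and 0.836. In replicate 1 this median lay below those of H3K27me1 (0.663) and H3K27me2 (0.642), and in replicate 2 above them (0.760 and 0.739). The median of H3K27me3 over all autosomal bins was lower still, at 0.513 averaged over the replicates against 0.738 in the gaining bins.

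Of the gaining bins, 5641 (87.0%) had a DMSO level below 0.4. The rule sets no upper limit on that level, but the DMSO mean is the divisor of its ratio. Low H3K36me2 is thus not independent of the rule. The bins were therefore set beside the 32506 other bins with a DMSO level from 0.2 to under 0.4, a comparison chosen with the data in view. Both sets had close DMSO levels of H3K36me2, with means of 0.298 and 0.295, and close untreated levels, with means of 0.252 and 0.257. The gaining set includes bins with a DMSO level of 0.4 or more, which the other set leaves out. The sets differed in H3K27me3. Untreated H3K27me3 was 1.93-fold higher in the gaining bins in replicate 1 and 2.02-fold higher in replicate 2, a log2 difference of 0.98 ± 0.04 (SD, n = 2). After DMSO the gaining bins were higher by 1.73- and 1.86-fold. Across these 4 libraries the difference had one sign (exact sign-flip permutation test, two-sided p = 0.125, the smallest that 4 libraries allow). H3K27me1 did not separate the sets, with ratios of 0.982 and 1.03 that straddled 1. H3K27me2 was 1.10- and 1.16-fold higher in the gaining bins, whereas mean H3K36me3 was lower, with ratios of 0.760 and 0.784. The medians of H3K36me3 lay closer together, at 0.167 and 0.131 in the gaining bins and 0.177 and 0.142 in the others. With only the 5641 gaining bins below a DMSO level of 0.4, which match the others in range, the ratios were smaller, at 1.67 and 1.79 for untreated H3K27me3 and 1.52 and 1.65 after DMSO. In this set, matched in range only, H3K36me2 was lower than in the others. The ratios were 0.915 and 0.907 after DMSO and 0.858 and 0.916 in untreated cells. Untreated H3K36me3 was also lower, with ratios of 0.700 and 0.696. For each single mark the 2 untreated libraries allow no p below 0.5.

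**Figure D1:**
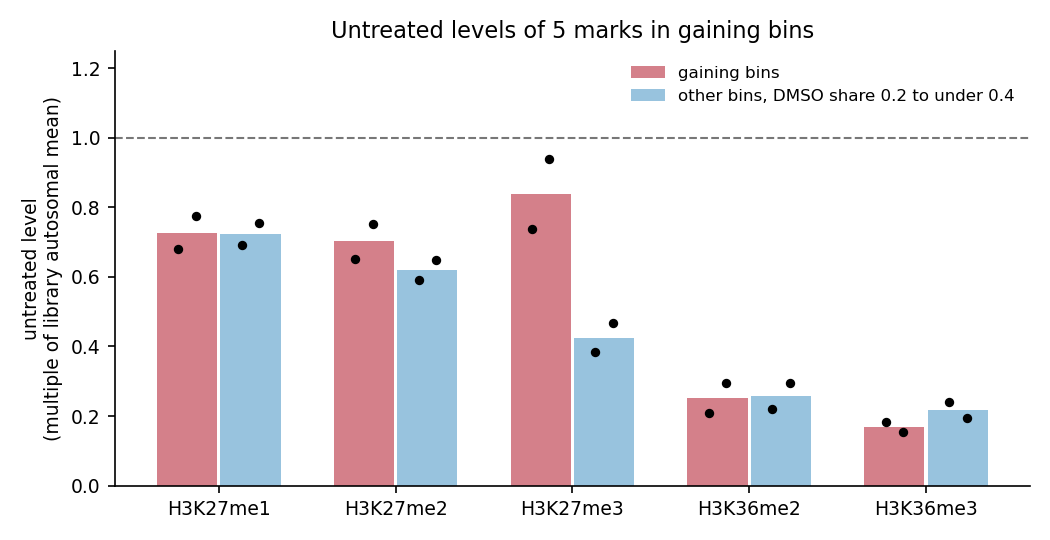
Untreated relative level of the 5 marks (y axis, multiple of the library autosomal mean, dashed line at 1) in the gaining bins and in the other bins with a DMSO H3K36me2 level from 0.2 to under 0.4. Bars are means and dots are the 2 libraries. The sets separate in H3K27me3, at 0.839 against 0.425, and lie close together in H3K27me1 and H3K36me2. The gaining bins include those with a DMSO level of 0.4 or more.

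The untreated H3K27me3 level sorted the bins with low H3K36me2 by whether they gained. All 38147 bins with a DMSO level from 0.2 to under 0.4, of which 14.8% were gaining bins, were divided into 5 groups of equal size by the untreated level of each mark. Of the group with the least H3K27me3, 31 of 7630 bins were gaining bins (0.406%). The share went through 4.22%, 11.04% and 21.9% to 36.3% in the group with the most H3K27me3, or 2773 of 7630 bins. Sorting by either untreated replicate alone gave the same order, from 0.668% to 34.5% with replicate 1 and from 0.433% to 37.1% with replicate 2. The order also held in narrower ranges of the DMSO level. From 0.2 to under 0.3 the share went from 0.711% to 47.6%, from 0.3 to under 0.4 it went from 0.0917% to 30.3%, and from 0.4 to under 0.6 it went from 0% (0 of 4985 bins) to 12.1%.

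No other mark gave such a range. With H3K27me2 the share went from 5.03% in the lowest group to 18.3% in the highest. With H3K27me1 it was 9.32% and 9.90% at the ends and 18.4% in the middle group. With H3K36me3 it was 14.4% in the lowest group, highest in the second at 18.5%, and 6.66% in the last. With H3K36me2 these 3 shares were 15.9%, 20.2% and 7.12%. Across the 38147 bins the Spearman rho of the H3K36me2 log2 change was 0.61 and 0.65 with the untreated H3K27me3 of replicates 1 and 2, 0.28 and 0.38 with H3K27me2, and -0.18 and -0.20 with H3K36me3. Over all 201904 bins that met the DMSO minimum the order of the marks was another one, with a rho of 0.10 and 0.18 for H3K27me3, -0.74 and -0.73 for H3K36me3, -0.69 and -0.63 for H3K36me2, -0.60 and -0.49 for H3K27me1 and -0.53 and -0.43 for H3K27me2, so the sign for H3K27me2 was opposite to that in the 38147 bins. Bins share their libraries and neighbours, so these values describe the bins only. Within the gaining bins the size of the change hardly followed H3K27me3, with a rho of 0.02 and 0.06, where the threshold narrows the range.

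**Figure D2:**
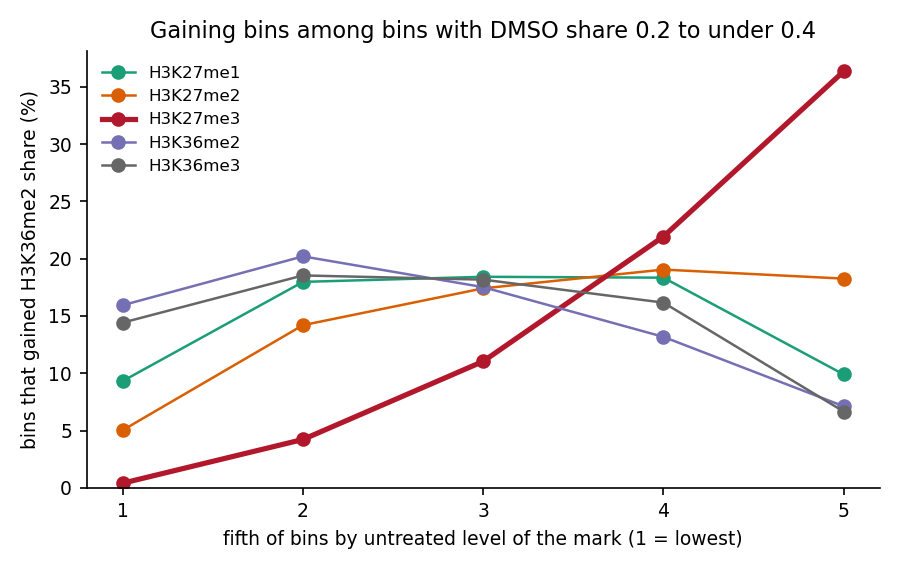
Percent of bins that are gaining bins (y axis) in 5 equal groups of the 38147 bins with a DMSO H3K36me2 level from 0.2 to under 0.4, sorted by the untreated level of each of the 5 marks (x axis, 1 is the lowest group). The line for H3K27me3 climbs from 0.406% to 36.3%, and the other 4 marks stay between 5.03% and 20.2%.

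The gaining bins were set against the H3K27me3 peaks that the authors called. Of the 6486 bins, 837 (12.9%) had at least 50% of their length in an H3K27me3 peak, 1127 (17.4%) lay partly in one and 4522 (69.7%) touched none, against 66.2% of all autosomal bins and 92.4% of the other bins of low H3K36me2. H3K27me3 peaks covered 13.8% of their length, against 22.3% over all autosomal bins and 2.23% over the other bins of low H3K36me2. Much of the overlap lay in the 845 gaining bins with a DMSO level of 0.4 or more, of which 480 (56.8%) had at least 50% of their length in such a peak. In the 5641 gaining bins below 0.4 these peaks covered 8.24% of the length, and 357 bins (6.33%) lay at least 50% in one, against 1.32% of the other bins of low H3K36me2. Among bins of low H3K36me2 with at least 50% of their length in an H3K27me3 peak, 357 of 785 (45.5%) were gaining bins, compared with 12.7% of those outside such peaks. H3K36me2 peaks covered 0.00540% of the length of the gaining bins and 0.110% of that of the other bins of low H3K36me2, and 5 gaining bins touched one. H3K27me2 peaks covered 0.578% and 0.615% of the same sets, and H3K27me1 peaks 1.28% and 5.12%. The median distance from a gaining bin to the nearest H3K36me2 peak was 212 kb, against 145 kb for the other bins of low H3K36me2, and 86.0% of gaining bins lay 50 kb or more from one, against 74.2% of the others and 36.7% of all bins.

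The bins inside and outside these peaks differed in their level of both marks. Bins inside H3K27me3 peaks had an untreated H3K27me3 level of 1.48 and 1.79 in replicates 1 and 2, and bins touching no peak had 0.551 and 0.719. The peak list belongs to these same untreated libraries, so a higher H3K27me3 level inside the peaks follows from the split. The DMSO level of H3K36me2 was 0.434 inside the peaks and 0.266 outside them. After the inhibitor the means were 0.813 and 0.506. The median log2 change was 0.89 inside and 0.90 outside, values that the threshold of 0.8 holds close together.

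By library, the mean relative H3K36me2 level over the gaining bins was 0.299 and 0.296 after DMSO and 0.566 and 0.562 after the inhibitor. In the untreated libraries, which the rule did not use, it was 0.208 and 0.296. The inhibitor libraries thus stood above the DMSO and the untreated libraries, and DMSO replicate 2 and untreated replicate 2 were level. In 6322 of 6486 bins (97.5%) both inhibitor libraries exceeded both untreated libraries, against 70.9% of the other bins of low H3K36me2 and 37.9% of all bins that met the DMSO minimum; the inhibitor values are those the rule chose for being high. Both DMSO libraries lay above both untreated libraries in 2705 gaining bins (41.7%), against 42.8% of the other bins of low H3K36me2 and 29.1% of all autosomal bins. Both lay below in 218 gaining bins (3.36%), against 8.60% of the other bins of low H3K36me2 and 23.0% of bins that met the minimum. The median log2 change from DMSO to inhibitor was 0.90, or 1.87-fold, and the highest was 1.49. The change was below 0.9 in 3248 bins and 1 or more in 1426. In 97.4% of the bins the inhibitor level stayed below the genome average of 1. Of all bins that met the DMSO minimum, 35.0% had the inhibitor pair above the DMSO pair. The other bins of low H3K36me2 had a median log2 change of 0.43. The mirror rule, for losses of the same size without overlap, was met by 64 bins. It kept the minimum on the DMSO level, so it is not an exact mirror. It uses the same libraries, so the count is a description only.

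**Figure D3:**
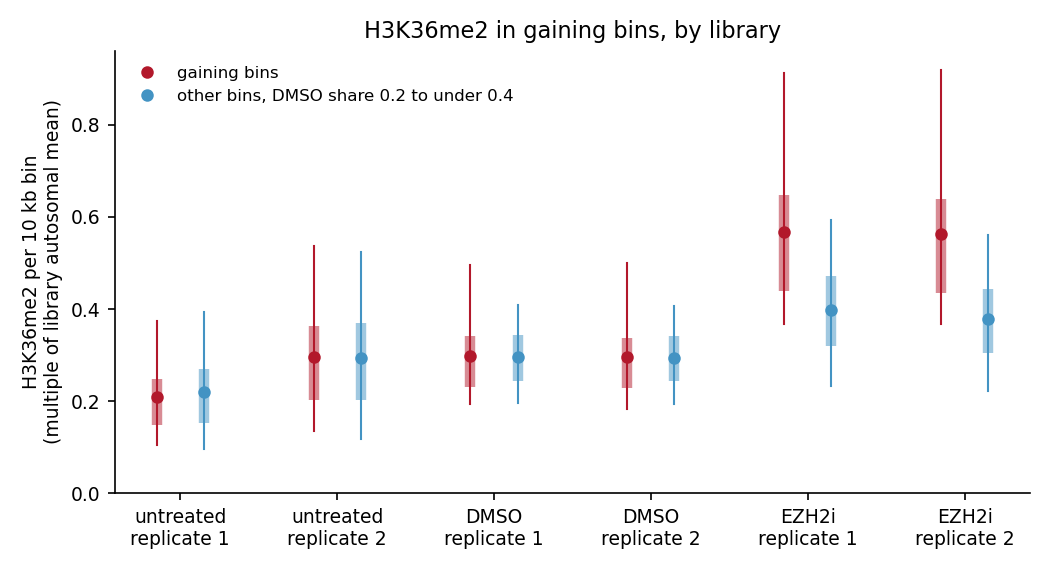
Relative H3K36me2 level per 10 kb bin (y axis, multiple of the library autosomal mean) in each of the 6 H3K36me2 libraries, for the gaining bins and for the other bins with a DMSO level from 0.2 to under 0.4. Dots are means, thick bars the middle 50% of bins and thin lines the range from the 5th to the 95th percentile; the means of the 2 sets lie close together in the untreated and DMSO libraries and part after the inhibitor, where they are 0.566 and 0.562 in the gaining bins, while the gaining bins reach higher after DMSO, with a 95th percentile of 0.496 against 0.410 in replicate 1.

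The threshold cuts through a continuous range. The 3 bins just inside it had log2 changes of 0.800006, 0.800022 and 0.800078, and the 3 just outside had 0.799924, 0.799899 and 0.799859. The bins rest on modest counts, since the median bin held 92 and 54 reads in the DMSO libraries and 232 and 114 in the inhibitor libraries. The same choice was made in the libraries of one replicate number and read in those of the other, using the DMSO minimum and the fold only. Of 9340 bins chosen in replicate 1, 9175 (98.2%) had a log2 change above 0 in replicate 2, with a median of 0.65, compared with 52.3% and a median of 0.02 over all 202110 bins that met the minimum in replicate 1. Of 7000 bins chosen in replicate 2, 6950 (99.3%) were above 0 in replicate 1, with a median of 0.74. The median in the choosing replicate was 0.92 and 0.93. Only 32.8% and 41.6% of the chosen bins passed 0.8 again, against 4.61% and 5.41% of all bins. Bins of low DMSO level were higher in any case. Among bins from 0.2 to under 0.4 in replicate 1, those not chosen had a median of 0.40 in replicate 2, with 83.3% above 0 and 16.3% past 0.8, and those chosen had 0.68, 98.2% and 36.5%. With the replicates exchanged the values were 0.46, 86.8% and 17.3% for bins not chosen and 0.75, 99.2% and 43.1% for those chosen. With 1 library per arm in each reading there is no test.

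On the spike-in scale, where each library keeps the deposited factor read here as its spike-in factor, the gaining bins held 102 and 66.5 scaled reads per window after DMSO and 240 and 134 after the inhibitor. The log2 change was 1.13, and single pairs of an inhibitor and a DMSO library gave between 0.40 and 1.85. In 6196 of the 6486 bins (95.5%) both inhibitor libraries were also above both DMSO libraries on this scale, against 33.8% of the other bins of low H3K36me2 and 13.3% of bins that met the DMSO minimum. These are the libraries of the rule on another scale, so nothing is read from the difference.

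H3K27me3 was measured in other libraries and was not used to choose the bins. Its relative level over the gaining bins was 0.719 and 0.784 after DMSO and 0.488 and 0.505 after the inhibitor, so that both inhibitor libraries lay below both DMSO libraries. The log2 change was -0.60, and single pairs gave between -0.69 and -0.51, against an SD between replicates of 0.09 after DMSO and 0.04 after the inhibitor (exact two-sided permutation test, p = 0.333, the smallest that 2 against 2 libraries allow). In the other bins of low H3K36me2 the mean did not move beyond the spread, at 0.418 ± 0.00381 and 0.427 ± 0.0239 (SD, n = 2 each), a log2 change of 0.03. The mean of the gaining bins exceeded theirs by 0.79 and 0.90 on the log2 scale after DMSO and by 0.25 and 0.19 after the inhibitor. That difference of -0.63 between arms was larger than the SD of 0.08 and 0.04 within them (exact permutation p = 0.333). By medians over bins the sets did not part in this way. The median of the gaining bins was 0.637 and 0.690 after DMSO and 0.505 and 0.423 after the inhibitor, and that of the other bins was 0.371 and 0.367 against 0.252 and 0.282. The log2 changes of these medians were -0.52 and -0.47, and the difference between the sets changed by -0.05. The inhibitor medians stand for 2 and 3 reads per gaining bin and 1 and 2 per other bin. On the spike-in scale H3K27me3 was 810-fold lower after the inhibitor in the gaining bins, 524-fold lower in the other bins of low H3K36me2 and 535-fold lower over all autosomal bins. The inhibitor values rest on 12525 and 23217 window reads over all gaining bins.

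Bin by bin, both inhibitor libraries lay below both DMSO libraries in relative H3K27me3 in 3202 gaining bins (49.4%), against 28.5% of the other bins of low H3K36me2 and 30.5% of all autosomal bins. They lay above both in 393 (6.06%), against 19.3% and 26.9%. A limma fit over 183822 bins with reads in all 4 libraries took in 4480 of the 6486 gaining bins, so bins without inhibitor reads do not enter its counts. At an adjusted p under 0.05 it called 163 of them lower and 7 higher. Over all bins tested it called 2.68% lower and 10.4% higher. The median log2 change was -0.32 in the gaining bins tested and 0.08 in all bins tested. With bins without reads also in the fit, these medians were -0.55 and -0.06. In the fit of 183822 bins, 3.79% of the gaining bins tested were called in either direction, against 13.1% of all bins tested. For lower calls alone the gaining bins had the larger part, with 163 of 4480 against 4926 of 183822. For higher calls they had the smaller part, with 7 of 4480 against 19135 of 183822. With the replicate number as a block, lower calls were 327 of 4480 against 11118 of 183822, again the larger part. These calls depended on the setting of the fit. With all 246266 bins in the fit no bin was called, gaining or not. In that fit 1440 gaining bins (22.2%) had an unadjusted limma p under 0.05, against 28.1% of all. Without DMSO replicate 1 the median log2 change was -0.36 in the gaining bins tested and 0.08 in all bins tested. Without DMSO replicate 2 these medians were -0.29 and 0.09. Without inhibitor replicate 1 the median log2 change was -0.38 in the gaining bins tested and 0.06 in all bins tested. Without inhibitor replicate 2 these medians were -0.24 and 0.17.

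The bins around the gaining bins also had more relative H3K36me2 after the inhibitor than after DMSO. Every central bin was chosen for its change, so a larger change there follows from the rule. Of the flanking bins, 20.3% at 10 kb and 14.0% to 17.6% from 20 to 100 kb were themselves gaining bins, so the flank means rest in part on chosen bins. At 10 kb to either side the H3K36me2 level was 0.327 to 0.337 after DMSO and 0.509 to 0.534 after the inhibitor, compared with 0.566 and 0.562 in the gaining bin itself. At 100 kb it was 0.387 to 0.397 after DMSO and 0.541 to 0.564 after the inhibitor. After DMSO the gaining bins were thus a dip in H3K36me2, a shape the rule favours, and the 2 untreated libraries also dipped, from 0.309 and 0.393 at 100 kb upstream to 0.208 and 0.296. After the inhibitor the profile was nearly flat with a small rise at the bin, which the rule also favours. H3K27me3 had its highest point at the bin in untreated cells and after DMSO, with 0.784 at the bin and 0.722 to 0.727 at 10 kb in DMSO replicate 2. After the inhibitor it was 0.488 and 0.505 at the bin and between 0.491 and 0.527 at 10 kb. In both inhibitor libraries the bin itself was the lowest point of the profile, and in the untreated and DMSO libraries it was the highest. Of 6130 neighbouring bins that met the DMSO minimum without being gaining bins, 98.4% had a log2 change of H3K36me2 above 0, with a median of 0.56. In the other bins of low H3K36me2 89.2% were above 0, with a median of 0.43, and in all other bins that met the minimum 51.1%.

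**Figure D4:**
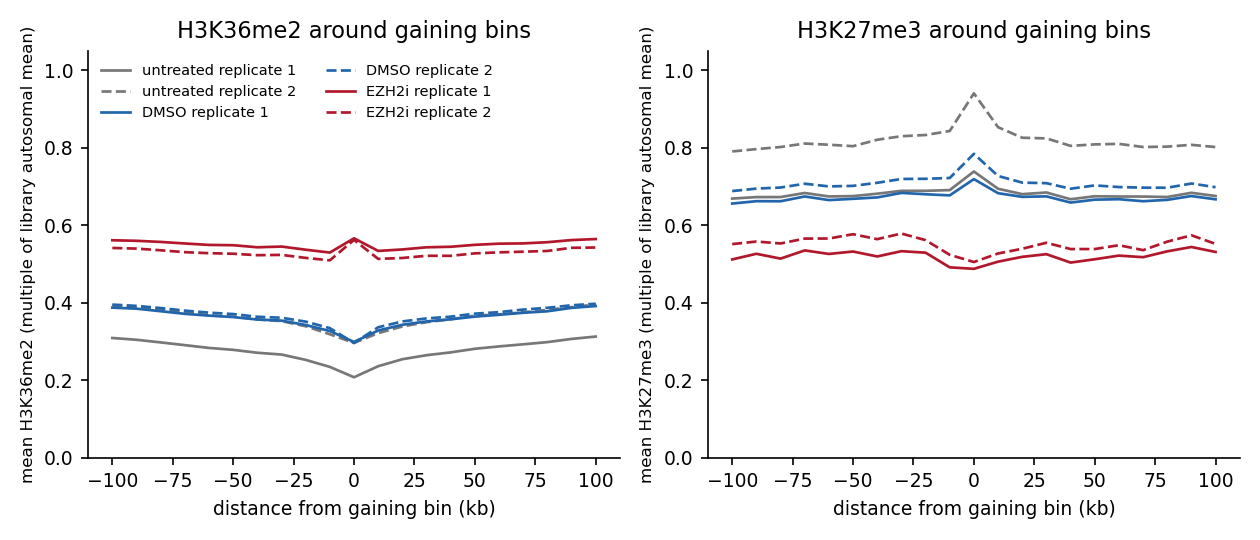
Mean relative level (y axes, multiple of the library autosomal mean) of H3K36me2 (left) and H3K27me3 (right) from 100 kb before to 100 kb after the gaining bins (x axes, distance in kb), with a line per library. H3K36me2 dips at the bins to 0.299 and 0.296 after DMSO and does not dip after the inhibitor, while the H3K27me3 maximum at the bins in DMSO libraries is missing after the inhibitor.

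The gaining bins fell into 5168 runs of adjacent bins. Single bins made up 4215 of them, 27 runs held 5 or more bins, and 35.0% of the bins had a gaining neighbour. The longest run held 10 bins, from 18970001 to 19070000 on chromosome 19 (GRCm38), inside Rorb, which encodes an orphan nuclear receptor of the retina and brain. Its relative H3K36me2 level was 0.346 and 0.331 after DMSO and 0.712 and 0.645 after the inhibitor. Its untreated H3K27me3 was 1.23 and 1.45, and relative H3K27me3 was 0.983 and 1.03 after DMSO and 0.682 and 0.663 after the inhibitor. A run of 6 bins from 21690001 to 21750000 on chromosome 6 lay in Kcnd2, a voltage-gated potassium channel gene, with H3K36me2 at 0.319 and 0.315 after DMSO and 0.685 and 0.622 after the inhibitor. A run of 6 bins from 107380001 to 107440000 on chromosome 10 lay in Lin7a, which encodes a synaptic scaffold protein, at 0.353 and 0.359 against 0.690 and 0.662. The other two of the 5 longest runs, with the tie among runs of 6 bins settled by the mean log2 change and 1 such run left out, held 6 bins each and overlapped no gene: one from 77830001 to 77890000 on chromosome 16, 411 kb from Cxadr, and one from 98380001 to 98440000 on chromosome 14, 210 kb from Dach1. In these 5 runs the relative H3K27me3 level of both inhibitor libraries was below that of both DMSO libraries. Over single bins, which hold fewer reads than a run, this order was found in 49.4% of gaining bins and 30.5% of all autosomal bins. In the run on chromosome 14 the nearest values were 0.715 in inhibitor replicate 1 and 0.735 in DMSO replicate 2.

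The 5 bins with the highest log2 change had values from 1.42 to 1.49. The first, from 66810001 to 66820000 on chromosome 16, lies in Cadm2, a neuronal cell adhesion gene. The DMSO libraries had 67 and 53 reads there and the inhibitor libraries 276 and 150, or relative levels of 0.199 and 0.262 against 0.619 and 0.680. The fourth, from 41520001 to 41530000 on chromosome 16, lies in Lsamp. The other three overlap no gene: they lie from 55410001 to 55420000 on chromosome 16, from 62940001 to 62950000 on chromosome 5 and from 102840001 to 102850000 on chromosome 10, at 88.0, 51.7 and 158 kb from the nearest protein-coding genes Zpld1, Dthd1 and Alx1. None of the 5 bins touched a peak of any of the 4 lists. The same was true of 66.5% of all gaining bins, 76.8% of the other bins of low H3K36me2 and 36.7% of all autosomal bins.

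By the RefSeq annotation of GRCm38.p6, 2686 gaining bins (41.4%) had at least 50% of their length in a gene body, and 3419 (52.7%) overlapped no gene, against 41.9% of all autosomal bins and 59.8% of the other bins of low H3K36me2. Over all autosomal bins 48.1% were genic, and over the other bins of low H3K36me2 32.6%. Protein-coding genes of 200 kb or more held 1745 gaining bins (26.9%), against 16.2% of all autosomal bins and 16.5% of the other bins of low H3K36me2. As a part of the bins in protein-coding genes this was 80.3%, against 40.5% over all bins and 66.7% over the other bins of low H3K36me2. At least 1 gaining bin touched 300 of 945 such genes (31.7%), compared with 631 of 20665 protein-coding genes (3.05%). A longer gene has more bins to be touched, so these counts are not per length.

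Among gene families counted by symbol, where 3.05% of all protein-coding genes were touched and the median gene length was 17.5 kb, gaining bins touched 6 of 23 Cdh genes, which encode cadherins and have a median length of 148 kb. They touched 13 of 92 Kcn genes, which encode potassium channels (34.5 kb). They touched 1 of 41 Fox genes, Foxp2, a transcription factor of the nervous system. None of 39 Hox genes (3.74 kb), 57 clustered protocadherin genes (90.3 kb), 53 Krt genes (7.07 kb) or 77 ribosomal protein genes (3.18 kb) was touched, counts to be read against the 3.05% and the short length of all but the protocadherin genes. Of Zfp genes 2 of 388 were touched, of Slc transporter genes 15 of 362, and of olfactory receptor genes 28 of 1104. Vomeronasal receptor genes were touched in 3 of 231 cases for Vmn1r and 4 of 123 for Vmn2r. Among lncRNA genes the count was 458 of 12408 (3.69%).

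The 20 protein-coding genes with the most gaining bins held 492 of them, and they were 395 to 2197 kb long. Their untreated H3K36me3 level over the whole gene was between 0.116 and 0.622. Lsamp, the gene of a neuronal adhesion protein, on chromosome 16 from 39984254 to 42181679, had the most, with 50 of its 220 bins. Its H3K36me2 level over the whole gene was 0.241 and 0.267 after DMSO and 0.401 and 0.439 after the inhibitor. Robo2, the gene of a Slit receptor of axon guidance, on the same chromosome from 73891976 to 75447443, had 43 of 156 bins, at 0.232 and 0.272 against 0.4004 and 0.428. Robo1, its paralog, had 21 of 102 bins, at 0.543 and 0.632 against 0.734 and 0.770. In these 3 genes both inhibitor libraries stood above both DMSO libraries.

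Grik1, a kainate receptor subunit on chromosome 16 from 87895901 to 88290863, had 25 of 39 bins gaining (64.1%), the largest part among the genes named here. Over all protein-coding genes, 17 had more than 50% of their bins gaining. Its H3K36me2 level was 0.307 and 0.357 after DMSO and 0.566 and 0.678 after the inhibitor, 1.87-fold higher. Grm8, a metabotropic glutamate receptor gene, had 21 of 86 bins, at 0.308 and 0.307 against 0.511 and 0.468. The synaptic genes Nrxn3 (neurexin), Dlg2 (a postsynaptic scaffold), Tenm2 (teneurin) and Adgrl3 (latrophilin) had 20, 22, 21 and 18 gaining bins. Adgrl3 was the one named gene in which relative H3K27me3 was higher after the inhibitor, at 0.585 and 0.784 after DMSO and 0.820 and 1.09 after it.

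The catenin genes Ctnna2 and Ctnna3 had 24 of 110 and 20 of 157 bins, the ephrin receptor gene Epha6 had 25 of 97, and the neuron navigator gene Nav3 had 18 of 78. Csmd1, a large transmembrane protein with CUB and sushi domains, had 22 of 165. Other named genes act in signalling and regulation. Prkg1, a cGMP-dependent protein kinase, had 33 of 121 bins, at 0.385 and 0.398 against 0.597 and 0.567. Hdac9, a class IIa histone deacetylase, had 26 of 87, at 0.360 and 0.373 against 0.633 and 0.553. Ppargc1a, a coactivator of mitochondrial genes, had 21 of 67 and started from a high H3K27me3 level of 1.58 and 1.86 in untreated cells. Celf2, an RNA-binding splicing regulator, had 21 of 86. Pde4d, a cAMP phosphodiesterase, had 18 of 131 and was the one gene whose arms overlapped over the whole gene, at 0.790 and 0.752 after DMSO and 0.841 and 0.777 after the inhibitor.

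Over the whole gene, both inhibitor libraries stood above both DMSO libraries in H3K36me2 in 19 of the 20 genes, against 15.6% of 15361 protein-coding genes with at least 1 bin, a count that follows from how the genes were chosen. In relative H3K27me3 both inhibitor libraries stood below both DMSO libraries in 16 of the 20, against 27.2% of all these genes. The 20 genes had a median length of 1149 kb, against 27.7 kb for all these genes. A longer gene averages more bins and reads, so the 2 shares are not alike. Untreated H3K27me3 over the genes named here ranged from 0.458 for Robo2 to 1.98 for Tenm2.

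**Figure D5:**
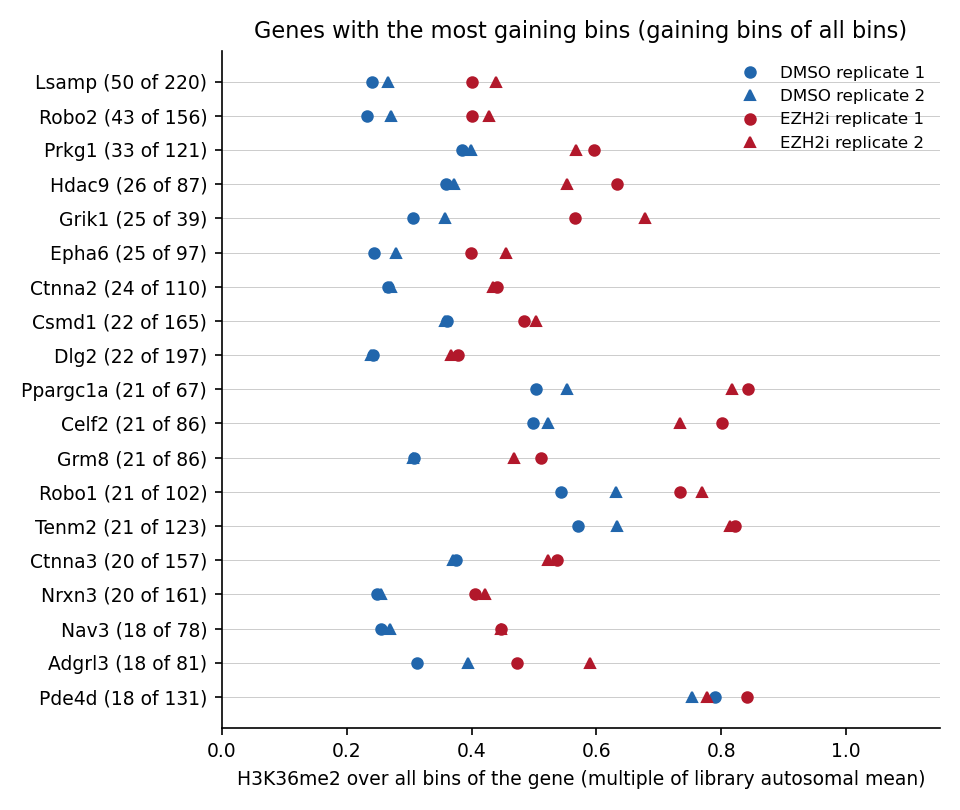
Relative H3K36me2 level over all bins of the gene (x axis, multiple of the library autosomal mean) for 19 of the 20 genes with the most gaining bins, with the gaining bins of all bins in brackets; circles are replicate 1 and triangles replicate 2. Inhibitor points lie to the right of both DMSO points in 18 of these genes and overlap them in Pde4d.

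Chromosome 16 held 758 gaining bins, 7.72% of its bins, while the other 18 autosomes ranged from 1.203% to 4.08%. Of its bins with a DMSO level from 0.2 to under 0.4, 36.3% were gaining bins, against 7.69% to 19.7% on the others. The mean level of the whole chromosome was 0.985 and 1.11 in H3K36me2 after DMSO and 1.02 and 1.17 after the inhibitor, a log2 change of 0.06, against -0.08 to 0.08 on the others. It differed between replicate numbers in both marks and both arms, from 1.13-fold to 1.14-fold higher in replicate 2, whereas the ratio was 0.984 to 1.03 in the untreated libraries. Chromosome 5 was likewise higher in replicate 2 in all 4 quantitative groups (1.07 to 1.13), and chromosomes 3 (0.871 to 0.934) and 14 (0.893 to 0.926) were lower. No other autosome differed by more than 0.05 in all 4. In the untreated libraries these 3 chromosomes stayed between 0.944 and 1.051. Gaining bins made up 4.08% of the bins of chromosome 3, the second highest share, 2.89% on chromosome 5 and 1.84% on chromosome 14. When bins were instead divided by the mean of their own chromosome, chromosome 16 had 500 gaining bins (5.09% of its bins), and the other autosomes had 1.33% to 3.41%. Without chromosome 16 the 5728 remaining gaining bins had a log2 change of relative H3K27me3 of -0.61, and the share of gaining bins across the 5 groups of untreated H3K27me3 went from 0.330% to 34.7%. Whether these whole-chromosome differences contribute to the count was not tested. Of the 20 named genes, 5 lie on chromosome 16.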

How the data were processed

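The deposited tracks hold log2 values for windows of 1 kb that start every 500 bp. By the values, each is the log2 of 1 plus a whole number of reads times a factor, which normalises to library size in untreated libraries and, in quantitative ones, was read as a spike-in factor set by the authors. How that factor was derived is not given in the sources used here. The submitters' processing notes name Trim Galore 0.4.2, Bowtie2 2.2.6.2, SICER and the builds mm10 and dm3. The mm10 build is GRCm38. The 4 deposited peak lists carry a score of unstated scale, by which peaks were ranked inside each list only. No input library was used here, so differences in mappability or copy number remain in all levels.

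Values were made linear, non-overlapping windows were averaged in 10 kb bins, and bins short of 10 windows were left out. Relative levels remove any genome-wide change. Relative H3K27me3 was tested with limma 3.58.1 (R 4.3.3) on log2(level + 0.25), with Benjamini-Hochberg adjustment over all bins with reads in all 4 libraries; this scale understates changes of low bins. Tested on simulated data, the fit missed the smaller of the 2 changes tried and found the larger. Means over sets were compared by exact permutation over libraries. Named genes are the 20 protein-coding genes with the most gaining bins, a bin counting for a gene when at least 50% of it lies in the body; 1 of them counts in the totals and is not reported here. The bins, gene lists and comparisons were chosen with earlier results of these data known.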

Additional observations from a re-analysis of the deposited data

Results flagged for a closer look

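The rule was written for autosomes, and chromosome X was not used above. Under the same rule, 41 of 17103 bins on chromosome X had relative H3K36me2 higher after the inhibitor than after DMSO. That is 0.240% of its bins. Of the 17103 bins, 6950 met the DMSO minimum, with a median log2 change of 0.00. Of the autosomal bins 82.0% met it. Levels on chromosome X were also divided by the autosomal mean, so the minimum does not act alike there. The 0.240% is therefore not comparable with the share on the autosomes.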

How the results depend on the processing

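The number of gaining bins followed the definition. It was 18740 at a log2 threshold of 0.6 and 1426 at 1.0, 15114 with a DMSO minimum of 0.1 and 845 with 0.4, and 16458 in bins of 5 kb and 2457 in bins of 20 kb. Leaving out 1 library gave 6858 to 8587, and scaling by the library median 4642. The untreated levels of the 5 marks moved by less than the SD between replicates as medians, for bins at a threshold of 1.0 and without chromosome 16; with 2 libraries, leaving 1 out cannot exceed it. With either replicate left out H3K27me3 ranged from 0.739 to 0.940, H3K36me2 from 0.208 to 0.296 and H3K36me3 from 0.153 to 0.184. The relative H3K27me3 change kept its sign in every alternative, from -0.66 to -0.53 with 1 library left out, and was -9.66 on the spike-in scale. The count of 170 gaining bins called changed in H3K27me3 did not hold. It was 103 with a pseudocount of 1 (2.30% of those tested, 11.5% of all bins), 0 with all bins in the fit, 4480 on the spike-in scale, where 183777 of all 183822 bins were also called lower, and between 0 and 3196 with 1 library left out; the lone library is then assumed to vary like the other arm. With the replicate number as a block the count of gaining bins called was 339, 12 higher and 327 lower (over all bins 29451 and 11118). The labels state no pairing. The whole-chromosome ratios of replicate 2 to replicate 1 on chromosomes 3, 5, 14 and 16 had the same direction in all 4 quantitative groups. Whether equal numbers belong together was not tested. The permutation tests between arms took the libraries as unpaired, and 2 pairs would allow no p below 0.5. Bins chosen in replicate 1 at a threshold of 1.0 had a median of 0.73 in replicate 2. The percent of gaining bins in genes was 47.3 with any overlap, 33.5 for protein-coding genes and 44.8 for bins at a threshold of 1.0. The percent in peaks above the median score, by the count of bins at least 50% in a peak, and for bins at 1.0 was 5.91, 12.9 and 11.6 for H3K27me3, 0.168, 0.940 and 0.792 for H3K27me1, and 0.0262, 0.370 and 0.217 for H3K27me2. The causes were not tested. Leaving out chromosome 16 and dividing by the chromosome mean (6411 bins, 5270 of them among the 6486) were added after seeing the data. In the H3K27me3 inhibitor libraries, depth limits single bins: 1670 and 520 gaining bins held 0 reads.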
